A study of Mus musculus with 7 samples.

Results

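The DNA replication origin and fork machinery was described through 46 genes in FOXP3-high and FOXP3-low regulatory T cells (Treg cells, which hold immune responses in check) from mouse melanomas. They are a list of replication proteins, matched by gene name, and each matched 1 of the 57180 rows of the count table. All 46 were among the 15838 genes that passed the filter on low counts. The 7 samples were sorted from lymphocytes that had infiltrated B16-F0 tumours, a transplantable mouse melanoma line, and comprised 3 FOXP3-high and 4 FOXP3-low samples. Mice of both groups carried Foxp3-Cre-YFP, in which Cre recombinase and a yellow fluorescent protein are expressed from the Foxp3 gene, and both groups are labelled WT in genotype. Neither age, nor sort gates, nor the number of mice is stated in the sources used here, so p-values measure the spread between samples, which may be technical. No other allele and no treatment is named for either group. RNA was prepared with a stranded mRNA kit, but whether strand was used in counting is not stated in the sources used here.

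Replication begins at origins marked by the origin recognition complex (ORC). With CDC6 and CDT1, ORC loads the MCM2-7 ring onto DNA in G1, a step called licensing, and geminin blocks CDT1 once DNA synthesis has begun. CDC45 and GINS then turn the ring into the active helicase, and the polymerases, the PCNA clamp with its loader RFC, RPA and the ligases copy the strands behind it. Most of these genes are transcribed in late G1 and S phase under E2F transcription factors, so their RNA is high in dividing T cells and low in resting ones.

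Values are CPM, a gene's counts scaled to library size (here with TMM factors), given as mean ± SD over n = 3 FOXP3-high and n = 4 FOXP3-low libraries or per library in the order of the replicate numbers. Log2 fold changes, each with its standard error, are positive where FOXP3-high was higher, and a gene was called when its adjusted p in edgeR's quasi-likelihood test was under 0.05. Libraries held 9048771 to 11202260 counts in FOXP3-high and 12177761 to 14546999 in FOXP3-low, so that 1 CPM stands for at most 14.3 counts. Foxp3 was at 698 ± 95.4 CPM in FOXP3-high and 357 ± 44.3 CPM in FOXP3-low, and Cd3e at 230.4 ± 16.0 and 175 ± 9.04 CPM in the same order. Markers of other cells also differed. Of 14 macrophage and monocyte genes 12 were lower and 1 higher in FOXP3-high, with a summed level of 529 to 582 CPM in FOXP3-high and 1664 to 2032 CPM in FOXP3-low; Itgam was at 25.1 ± 7.71 and 543 ± 53.3 CPM and Lyz2 at 28.0 ± 9.02 and 553 ± 38.9 CPM. The higher gene was Ccr2, a chemokine receptor that T cells also express, named after its value was seen, and it made up most of the summed level in FOXP3-high at 450.1 CPM. All 7 neutrophil genes were lower (93.6 to 229 CPM summed in FOXP3-high, 2655 to 3121 in FOXP3-low), and so were 3 of the 5 tested B and plasma cell genes (92.8 to 123 and 397 to 528 CPM, 8 genes summed), both CD8 genes (8.91 to 12.7 and 26.2 to 33.96 CPM) and 1 of the 3 tested NK cell genes (3.12 to 5.38 and 7.28 to 11.8 CPM, 4 genes summed). All 11 melanoma genes were higher (3475 to 4774 CPM summed in FOXP3-high and 1431 to 2563 in FOXP3-low, of which Dct held 3061 ± 472 and 1476 ± 351 CPM), as were 16 of 17 T cell identity genes (4617 to 5340 and 3157 to 3631 CPM) and 8 of 9 Treg genes (4020 to 4946 and 2640 to 3070 CPM). Libraries numbered 3 stood apart in endothelial genes (487 CPM in FOXP3-high replicate 3 and 462 CPM in FOXP3-low replicate 3, against 75.03 to 241 CPM in the other 5) and in fibroblast genes (494 and 638 CPM, against 26.5 to 209 CPM). No marker in these lists was without counts in all libraries of a group. The part of these other cells in the results that follow was not tested.

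Replication genes were lower in FOXP3-high as a group, with a few named exceptions. Of the 46, 42 were lower, which is 91.3% against 24.6% of all tested genes. A single gene, Orc4, was higher, where 21.8% of all tested genes were higher, and Orc3, Orc5 and Cdt1 did not pass. A call with a log2 fold change under -1 was made for 29 of the 46 (63.0%), against 10.1% of all tested genes. The median log2 fold change of the 46 was -1.37, a 2.59-fold lower level, against 0.01 over all tested genes. Counts on these 46 genes made up 0.142% to 0.151% of all counts in FOXP3-high libraries and 0.353% to 0.372% in FOXP3-low libraries. In such bulk samples, fewer replicating cells and less RNA per cell cannot be told apart. In 42 genes every FOXP3-high library lay below every FOXP3-low library, which was so for 26.8% of all tested genes; in 1 every FOXP3-high library lay above, as in 23.9% of all tested genes, and in 3 the groups overlapped. Of the 46, 26 were called, all lower, in a test against a 2-fold change (edgeR's glmTreat). The same test called 981 of the 15838 tested genes lower and 137 higher.

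**Figure D1:**
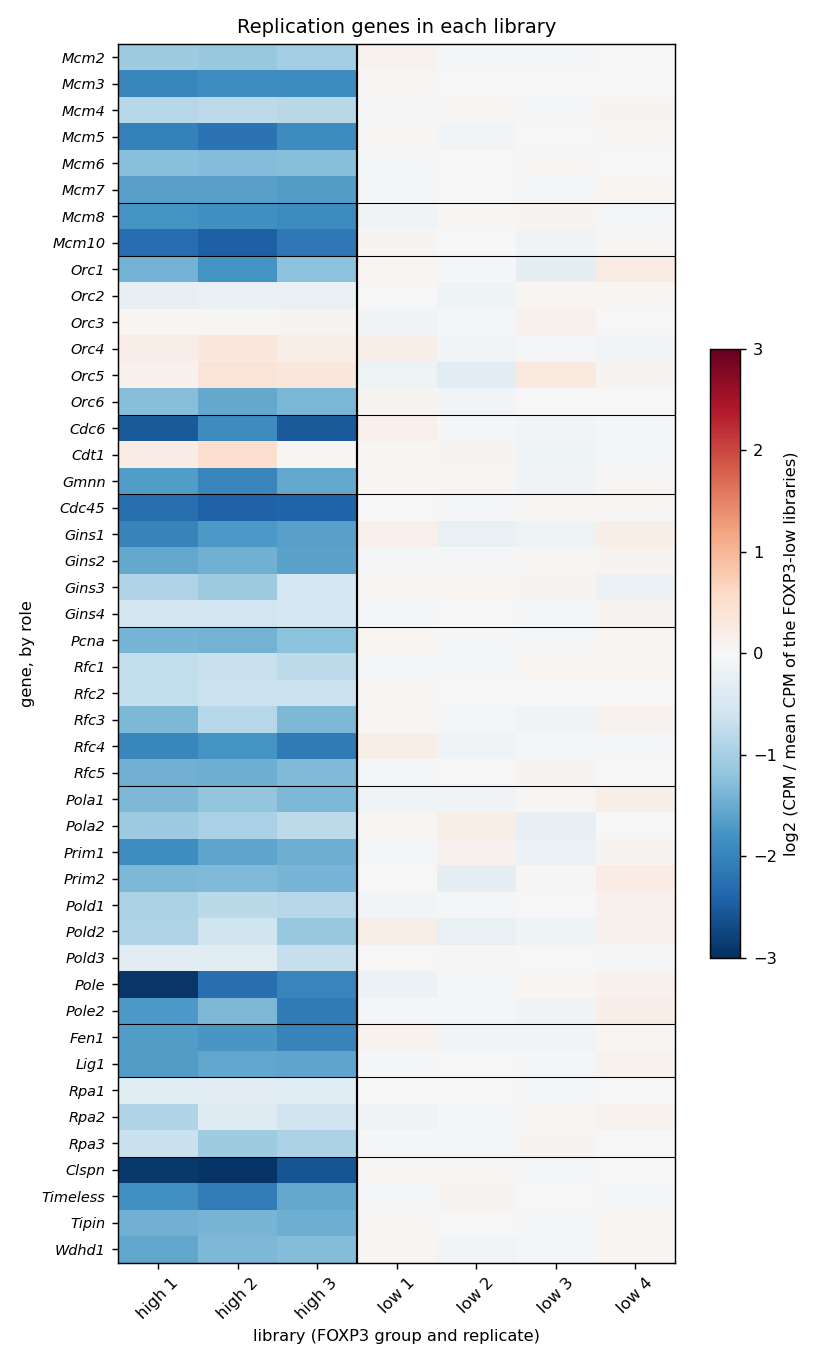
Heat map of the 46 replication genes (rows, by role, separated by lines) in the 3 FOXP3-high libraries (left of the vertical line) and the 4 FOXP3-low libraries; colour is log2 of CPM over the mean CPM of the FOXP3-low libraries, blue for lower and red for higher. The FOXP3-high columns are blue in nearly all rows, and pale or red in Orc2, Orc3, Orc4, Orc5 and Cdt1.

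**Figure D2:**
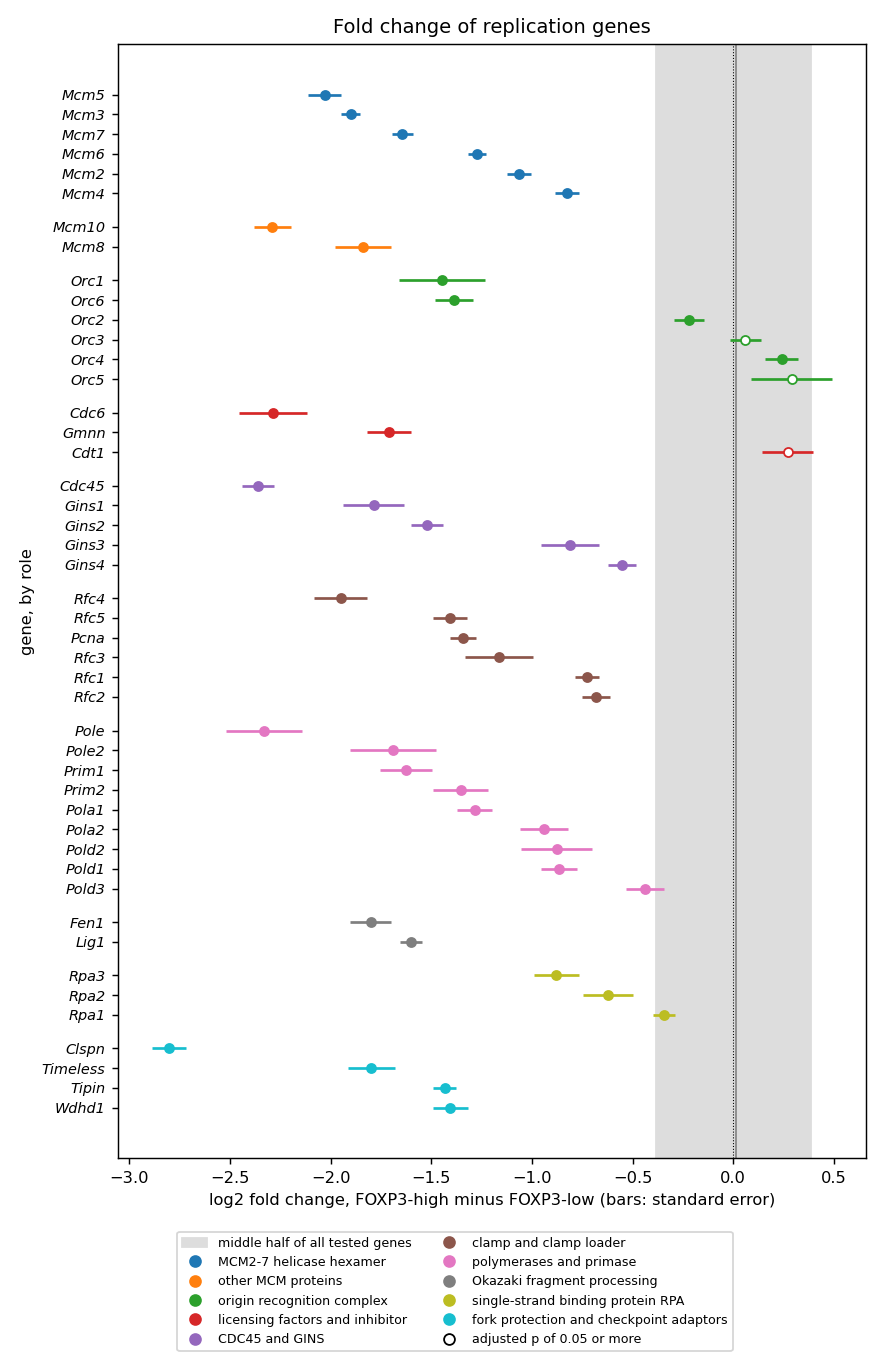
Log2 fold change (FOXP3-high minus FOXP3-low) of each gene with its standard error, by role; open circles did not pass an adjusted p of 0.05, and the grey band is the interquartile range of all tested genes. Clspn lies farthest to the left at -2.80, and the open circles are Orc3, Orc5 and Cdt1.

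Promoter sequence was examined because the genes fell together and E2F factors are known to act on many of them. RefSeq windows of 300 bases (250 before the start of transcription and 50 after it, GRCm38.p6) were matched by symbol for 37 of the 46 genes; Gins1, Gins2, Gins4, Gmnn, Mcm4, Pole, Prim2, Rfc2 and Tipin had none. The E2F core was searched on both strands as the octamers TTTCCCGC, TTTCGCGC, TTTGCCGC and TTTGGCGC. At least 1 octamer was found in 17 of the 37 genes (45.9%), against 4.57% of the 10562 tested genes with a window and 2.60% of all 27025 genes with one. Among the genes that were lower, 15 of 33 held an octamer, as did 2 of the 3 that did not pass and 0 of the 1 that was higher. Orc3 and Cdt1, which did not pass, also held one, and Clspn, Mcm3, Mcm6 and Orc1 were among the lower genes that did. No octamer lay in these windows of Cdc45, Mcm10 or Pcna. A match describes letters and does not show binding. The printed stretches run from 120 bases before the start to 30 after it, on the strand of the gene, which RefSeq and GENCODE M21 gave alike for all 45 windows of these genes; capitals mark octamers, the first capitals of Mcm6 being 2 octamers that overlap, and a further octamer of Mcm3 lies past the printed end. The nearest GENCODE M21 start lies 41 bases further downstream in Mcm6 and 15 in Clspn, and within 2 bases in the other printed genes, so the position of the Mcm6 octamers from the start depends on the annotation. Clspn is shown for the largest fall, Mcm3 and Mcm6 for the ring, and Orc1 and Orc3 as subunits of 1 complex that moved differently.
Clspn (chr4:126556860-126557009, plus strand): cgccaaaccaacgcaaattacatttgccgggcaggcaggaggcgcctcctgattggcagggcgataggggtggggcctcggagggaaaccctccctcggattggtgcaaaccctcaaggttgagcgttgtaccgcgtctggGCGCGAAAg
Mcm3 (chr1:20820283-20820432, minus strand): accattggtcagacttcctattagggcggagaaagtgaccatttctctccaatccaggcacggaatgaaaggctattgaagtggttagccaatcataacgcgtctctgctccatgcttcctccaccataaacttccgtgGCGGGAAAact
Mcm6 (chr1:128359676-128359825, minus strand): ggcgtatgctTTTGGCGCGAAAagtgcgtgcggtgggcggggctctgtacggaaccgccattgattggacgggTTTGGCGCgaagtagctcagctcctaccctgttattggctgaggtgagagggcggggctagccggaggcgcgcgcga
Orc1 (chr4:108579334-108579483, plus strand): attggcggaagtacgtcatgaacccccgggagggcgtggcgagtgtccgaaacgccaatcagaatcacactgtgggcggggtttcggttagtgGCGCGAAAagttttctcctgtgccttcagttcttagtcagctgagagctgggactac
Orc3 (chr4:34614913-34615062, minus strand): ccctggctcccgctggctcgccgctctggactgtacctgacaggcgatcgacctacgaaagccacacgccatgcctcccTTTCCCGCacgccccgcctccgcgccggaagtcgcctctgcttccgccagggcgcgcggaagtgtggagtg

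The 6 subunits of the MCM2-7 ring, the core of the replicative helicase, all fell in FOXP3-high, but by unequal amounts. Mcm3 was at 83.8, 89.6 and 88.7 CPM in FOXP3-high and 332, 321, 323 and 329 CPM in FOXP3-low. The 3 FOXP3-high libraries lay close together and far below the other 4 (log2 fold change -1.90 ± 0.0465, edgeR adjusted p = 5.7e-08). Mcm5 was at 40.1, 35.3 and 44.5 CPM in FOXP3-high and 169, 155, 163 and 166 CPM in FOXP3-low, with no overlap and the largest fall of the ring (4.08-fold lower, -2.03 ± 0.0811, adjusted p = 2.11e-07). Mcm4 stood at the other end of the ring. It was at 61.2, 63.9 and 62.00 CPM in FOXP3-high and 106, 113, 106 and 117 CPM in FOXP3-low, and although no library overlapped, the level was only 1.77-fold lower (-0.83 ± 0.0597, adjusted p = 4.5e-06). Mcm7 was 3.13-fold lower at 49.3 ± 1.01 CPM in FOXP3-high, against 154 ± 4.83 CPM in FOXP3-low. Mcm6 was 2.42-fold lower at 90.7 ± 0.834 CPM in FOXP3-high, against 219 ± 4.64 CPM in FOXP3-low, and Mcm2 2.09-fold lower at 73.5 ± 3.08 CPM in FOXP3-high, against 154 ± 7.63 CPM in FOXP3-low, with the groups apart in each. Mcm7 shares 421 bases with Ap4m1 on the opposite strand, which held 21.7% as many counts.

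The mix of the 6 subunit RNAs differed between the groups, as their shares of the summed Mcm2 to Mcm7 counts show. These shares do not depend on how libraries are scaled; they add up to 100%, so 1 share cannot move alone, and no test was made on them. Mcm3 took 20.96, 22.5 and 21.6% in FOXP3-high and 29.2, 28.99, 28.9 and 28.6% in FOXP3-low. Mcm5 took 10.02, 8.85 and 10.8% in FOXP3-high and 14.8, 14.02, 14.6 and 14.5% in FOXP3-low, and Mcm7 12.4, 12.6 and 11.7% in FOXP3-high and 13.3, 13.96, 13.4 and 13.97% in FOXP3-low. The other 3 subunits had larger shares in FOXP3-high. Mcm2 took 18.5, 17.6 and 18.6% in FOXP3-high and 14.5, 13.3, 13.5 and 13.3% in FOXP3-low, Mcm4 15.3, 16.02 and 15.1% in FOXP3-high and 9.32, 10.2, 9.51 and 10.2% in FOXP3-low, and Mcm6 22.8, 22.5 and 22.2% in FOXP3-high and 18.9, 19.5, 20.05 and 19.4% in FOXP3-low. In all 6, the shares of the groups' libraries did not overlap. How often such shares separate for other sets of genes was not computed, so this count does not single out the ring. In CPM, FOXP3-high libraries all lay below FOXP3-low in 26.8% of all tested genes and above in 23.9%.

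**Figure D3:**
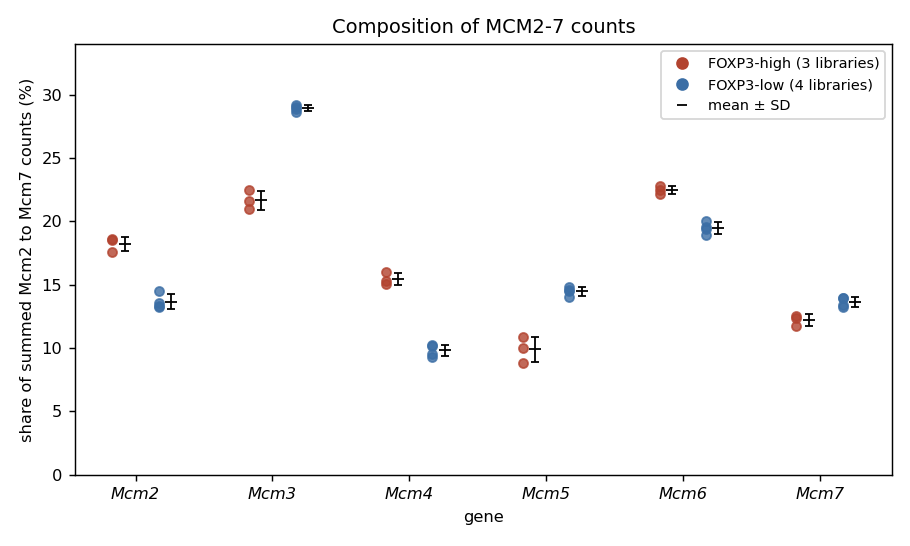
Share of the summed Mcm2 to Mcm7 counts (percent, vertical axis) held by each subunit gene in each library, FOXP3-high left of FOXP3-low for each gene; points are libraries and bars the mean ± SD (n = 3 and n = 4). Mcm2, Mcm4 and Mcm6 hold larger shares in FOXP3-high and Mcm3, Mcm5 and Mcm7 smaller ones, with no overlap.

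Mcm10, which helps to start the active helicase, and Mcm8, a relative of the ring subunits with a role in recombination, both fell (median log2 fold change -2.07, against -1.46 for the ring). Mcm10 was at 15.6, 13.8 and 17.1 CPM in FOXP3-high and 80.1, 74.9, 70.7 and 77.8 CPM in FOXP3-low. The groups lay far apart (4.89-fold lower, -2.29 ± 0.0909, adjusted p = 2.07e-07). Mcm8 was a low gene at 3.68 ± 0.189 CPM in FOXP3-high, against 13.2 ± 0.801 CPM in FOXP3-low (-1.84 ± 0.139, adjusted p = 5.75e-06).

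ORC was the exception among the complexes. Of its 6 subunit genes 3 were lower, 1 was higher and 2 did not pass, with a median log2 fold change of -0.08. Over all tested genes 24.6% were lower and 21.8% higher, with a median of 0.01. The fall was large in Orc1 and Orc6 and small in Orc2. Orc1, whose protein is known to rise and fall over the cell cycle in human cells, was at 2.75, 2.12 and 3.11 CPM in FOXP3-high and 7.64, 7.08, 5.96 and 8.62 CPM in FOXP3-low. It rested on 19 to 33 counts in FOXP3-high libraries and 85 to 103 in FOXP3-low, without overlap (2.73-fold lower, -1.45 ± 0.214, adjusted p = 0.000422). Orc6 was at 12.5, 10.4 and 11.6 CPM in FOXP3-high and 31.6, 28.6, 29.8 and 30.4 CPM in FOXP3-low, again without overlap (2.62-fold lower, -1.39 ± 0.0928, adjusted p = 2.86e-06).

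The core subunits Orc2 to Orc5 differed little between the groups. Orc2 was at 27.3, 28.3 and 28.2 CPM in FOXP3-high and 32.8, 29.9, 33.7 and 33.6 CPM in FOXP3-low. The FOXP3-high libraries all lay lower, by a small amount (-0.22 ± 0.0739, adjusted p = 0.0349). Orc3, which also has an E2F octamer, was at 32.2, 31.3 and 32.7 CPM in FOXP3-high and 28.6, 30.02, 33.8 and 30.6 CPM in FOXP3-low, and its FOXP3-high values fell within the range of FOXP3-low (0.06 ± 0.0784, adjusted p = 0.574). Orc4 was at 42.7, 46.6 and 43.2 CPM in FOXP3-high and 42.1, 35.4, 36.7 and 35.6 CPM in FOXP3-low. Its lowest FOXP3-high library lay just above FOXP3-low replicate 1 (0.24 ± 0.0828, adjusted p = 0.0387). Orc5 was at 4.64, 5.57 and 5.38 CPM in FOXP3-high and 3.82, 3.42, 5.19 and 4.52 CPM in FOXP3-low, with overlapping groups and 42 to 74 counts per library (0.29 ± 0.202, adjusted p = 0.276). The calls of Orc2 and Orc4 changed with the setting. Orc2 lost its call in 12 of 18 alternatives, among them leaving out any single library other than FOXP3-low replicate 2 (adjusted p from 0.0709 without FOXP3-high replicate 1 to 0.095 without FOXP3-low replicate 4). Orc4 lost its call in 11, among them leaving out any single library other than FOXP3-low replicate 1 (adjusted p from 0.0609 without FOXP3-low replicate 4 to 0.093 without FOXP3-low replicate 3). When libraries were scaled to 17 T cell identity genes, Orc4 turned lower in FOXP3-high (-0.28, adjusted p = 0.0418). That scaling, which lowers the median of all genes by 0.51, also put Orc3 (-0.46, adjusted p = 0.00902), Orc5 (-0.23, adjusted p = 0.418) and Cdt1 (-0.25, adjusted p = 0.0865) below 0.

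Several ORC genes overlap other genes with which reads could be shared. Orc2 overlaps Nif3l1 on the opposite strand (51.8% as many counts), Orc1 overlaps Gm12743 (26.7%), and Orc4 overlaps Mbd5 (62.0%) and Acvr2a (21.8%), both opposite; Acvr2a was at 12.8 to 16.0 CPM in FOXP3-high and 4.79 to 5.19 CPM in FOXP3-low. The values of these 3 genes are uncertain, and the part of such overlaps in the differences was not tested.

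The licensing factors moved in different ways. Cdc6, the loader of the ring, was at 4.04, 6.35 and 4.06 CPM in FOXP3-high and 26.00, 22.7, 21.9 and 22.7 CPM in FOXP3-low. FOXP3-high replicate 2 was the highest of its group and still far below FOXP3-low (4.88-fold lower, -2.29 ± 0.17, adjusted p = 5.28e-06). Cdt1, its partner, was at 15.8, 19.4 and 14.3 CPM in FOXP3-high and 14.3, 14.5, 12.4 and 13.4 CPM in FOXP3-low. The lowest FOXP3-high library, replicate 3, lay within the FOXP3-low range, and the difference did not pass (0.27 ± 0.127, adjusted p = 0.111). Gmnn, which encodes the CDT1 inhibitor geminin, was at 15.8, 12.7 and 17.5 CPM in FOXP3-high and 51.3, 51.6, 47.03 and 51.4 CPM in FOXP3-low. The groups lay far apart (3.27-fold lower, -1.71 ± 0.109, adjusted p = 2.11e-06). Counts of Cdt1 were 151 to 184 in FOXP3-high and 160 to 178 in FOXP3-low libraries, against 114 to 185 and 615 to 671 counts of Gmnn in the same order. Gmnn overlaps Gm56584 on the opposite strand, with 25.3% as many counts.

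**Figure D4:**
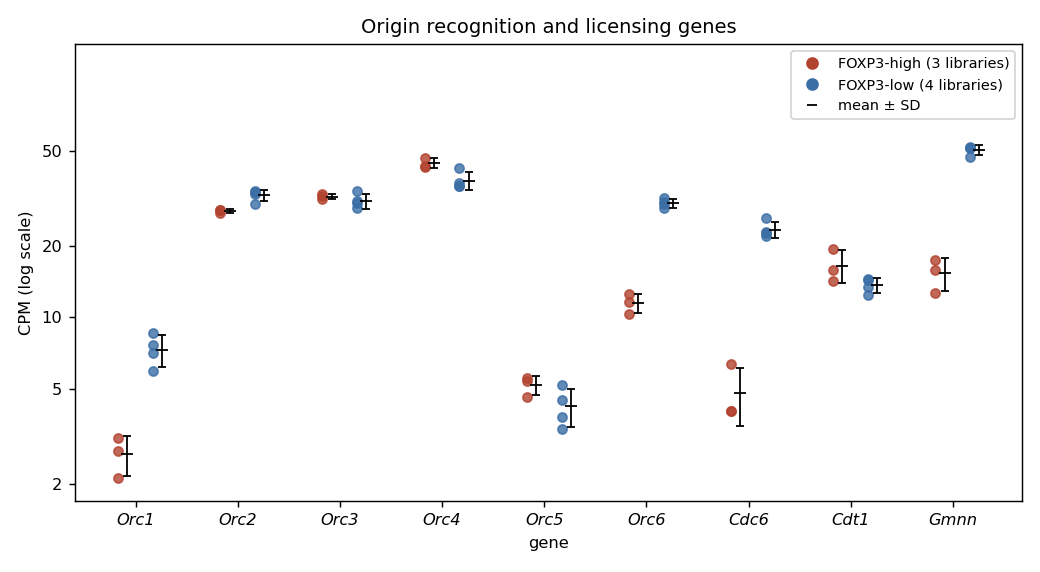
CPM on a log scale of the 6 ORC genes and of Cdc6, Cdt1 and Gmnn in each library, FOXP3-high left of FOXP3-low for each gene; points are libraries and bars the mean ± SD (n = 3 and n = 4). Orc1, Orc6, Cdc6 and Gmnn are lower in FOXP3-high, and Orc2 to Orc5 and Cdt1 lie near each other.

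CDC45 and the GINS complex, which join the ring to form the active helicase, all fell. Cdc45 was at 12.5, 11.02 and 11.2 CPM in FOXP3-high and 58.8, 57.1, 61.4 and 61.2 CPM in FOXP3-low. No library overlapped, and the fall was 5.14-fold (-2.36 ± 0.0797, adjusted p = 1.07e-07). Gins1 fell 3.45-fold (6.65 ± 0.872 CPM in FOXP3-high, against 22.9 ± 3.31 CPM in FOXP3-low). Gins2 fell 2.87-fold (14.6 ± 0.793 CPM in FOXP3-high, against 41.8 ± 1.84 CPM in FOXP3-low). The folds of the other subunits were smaller. Gins3 was 1.75-fold lower (-0.81 ± 0.143, adjusted p = 0.00124), and Gins4 only 1.47-fold, at 25.4, 25.05 and 26.05 CPM in FOXP3-high and 36.5, 37.7, 36.1 and 39.5 CPM in FOXP3-low (-0.55 ± 0.0701, adjusted p = 0.000158). Genes on the opposite strand held many counts. Ufd1 opposite Cdc45 held 159% as many counts over its whole length, while the spans of these genes share 194 bases. Ufd1 was at 65.1 to 74.7 CPM in FOXP3-high and 60.6 to 67.2 CPM in FOXP3-low. Gse1 opposite Gins2 held 126% over its whole length, with 2758 bases shared. Gse1 was at 42.0 to 51.3 CPM in FOXP3-high and 31.9 to 39.7 CPM in FOXP3-low. Whether reads were counted by strand is not stated in the sources used here, so the values of Cdc45 and Gins2 are uncertain.

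All 6 genes of the PCNA clamp and its loader RFC fell. Pcna, the ring that holds polymerases on DNA, was at 60.2, 59.7 and 67.7 CPM in FOXP3-high and 165, 153, 151 and 165 CPM in FOXP3-low. The groups did not overlap (2.54-fold lower, -1.34 ± 0.0667, adjusted p = 6.21e-07). Of the loader, Rfc4 fell most at 3.86-fold (5.32 ± 0.591 CPM in FOXP3-high, against 20.5 ± 1.89 CPM in FOXP3-low), followed by Rfc5 at 2.65-fold and Rfc3 at 2.24-fold. The largest subunit, Rfc1, which is known to load PCNA, fell 1.66-fold (61.4 ± 2.21 CPM in FOXP3-high, against 102 ± 4.10 CPM in FOXP3-low) and Rfc2 1.60-fold (21.3 ± 0.852 CPM in FOXP3-high, against 34.1 ± 0.739 CPM in FOXP3-low). Adjusted p-values of the 6 genes ran from 6.21e-07 in Pcna to 0.000398 in Rfc3. AV099323, opposite Pcna over 165 bases, held 12.2% as many counts.

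All 9 genes of the replicative polymerases and primase fell, and the largest fold was that of Pole. Pole, the catalytic subunit of polymerase epsilon on the leading strand, was at 6.62, 10.46 and 12.7 CPM in FOXP3-high and 44.4, 48.3, 52.1 and 54.7 CPM in FOXP3-low. FOXP3-high replicate 1 was the lowest and replicate 3 the highest of a wide group that stayed below all FOXP3-low libraries (5.04-fold lower, -2.33 ± 0.189, adjusted p = 9.13e-06). Its partner Pole2 fell 3.23-fold to a low level (2.80 ± 0.744 CPM in FOXP3-high, against 9.01 ± 0.923 CPM in FOXP3-low), and Gm49384 on the same strand held 121% as many counts, so this value is uncertain. In the primase and polymerase alpha complex, which starts each new strand, Prim1 fell 3.08-fold, Prim2 2.56-fold, Pola1 2.44-fold (52.9 ± 3.58 CPM in FOXP3-high, against 129 ± 12.4 CPM in FOXP3-low) and Pola2 1.92-fold. Polymerase delta, the lagging-strand enzyme, had the smaller folds. Its catalytic subunit Pold1 was 1.82-fold lower (15.3 ± 0.723 CPM in FOXP3-high, against 27.97 ± 1.97 CPM in FOXP3-low) and Pold2 1.84-fold lower. Pold3 was at 53.3, 52.1 and 40.6 CPM in FOXP3-high and 66.4, 67.3, 65.3 and 64.7 CPM in FOXP3-low. FOXP3-high replicate 3 was the lowest library, and the fall was 1.35-fold (-0.44 ± 0.0944, adjusted p = 0.00406).

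Both genes that finish Okazaki fragments fell. Lig1, the ligase that seals the lagging strand, was at 185, 199.9 and 196 CPM in FOXP3-high and 565, 582, 573 and 634 CPM in FOXP3-low. The groups were far apart (3.04-fold lower, -1.60 ± 0.0554, adjusted p = 1.08e-07). Fen1, the flap endonuclease, was at 15.6, 14.9 and 12.6 CPM in FOXP3-high and 53.6, 47.2, 47.1 and 52.4 CPM in FOXP3-low (3.49-fold lower, adjusted p = 1.05e-06). Gm10143 overlaps Fen1 on the opposite strand along 3253 bases with 95.2% as many counts. It was at 12.1 to 14.4 CPM in FOXP3-high and 44.4 to 51.7 CPM in FOXP3-low, so the values of this pair are uncertain. Tmem258, also opposite Fen1 over 156 bases, held 23.3% as many counts.

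RPA, which coats single-stranded DNA in replication and in repair, had the smallest median fall among the roles in which every gene was lower (-0.62). Its largest subunit Rpa1 was at 65.9, 68.4 and 65.5 CPM in FOXP3-high and 85.3, 85.98, 81.7 and 85.7 CPM in FOXP3-low. The libraries of each group lay close together and did not overlap, and the fall was 1.27-fold (-0.35 ± 0.0547, adjusted p = 0.000646). Rpa2 fell 1.54-fold and Rpa3 1.84-fold, with adjusted p-values of 0.00252 and 0.00016.

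The 4 genes of fork protection held the largest fall of all 46. Clspn, whose promoter is printed above, encodes claspin, the adaptor through which stalled forks activate the checkpoint kinase CHK1. The gene spans positions 126450728 to 126487696 of chromosome 4 on the plus strand in the deposited coordinates, taken as GRCm39, the mouse build in the submitters' processing notes. It was at 36.4, 35.6 and 44.8 CPM in FOXP3-high and 278, 277, 263 and 271 CPM in FOXP3-low. The FOXP3-high libraries were 6.98-fold lower (-2.80 ± 0.0839, adjusted p = 9.28e-08). Timeless and Tipin, which form a complex that stabilises forks, fell 3.48-fold and 2.70-fold. Timeless was at 31.4 ± 6.09 CPM in FOXP3-high, against 109 ± 4.05 CPM in FOXP3-low. Tipin was at 42.8 ± 1.35 CPM in FOXP3-high, against 116 ± 4.04 CPM in FOXP3-low. Wdhd1, also called AND-1, which links the helicase to polymerase alpha, fell 2.65-fold (20.3 ± 1.87 CPM in FOXP3-high, against 53.7 ± 2.49 CPM in FOXP3-low); Gm49150 on the opposite strand held 29.3% as many counts.

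To see which genes fell more or less than the MCM2-7 ring, all genes were tested again with the summed Mcm2 to Mcm7 counts (3583 to 4652 in FOXP3-high and 13624 to 15963 in FOXP3-low) as the size of each library. On this scale the median of all tested genes was 1.49, and 4.7% of all tested genes were lower and 86.1% higher in FOXP3-high. Of the 40 genes outside the ring, 9 were lower relative to it, 17 were higher and 14 did not pass. A total of 5 genes were lower in each of 12 alternatives that kept this scale: Clspn (log2 difference -1.32, adjusted p = 7.05e-08), Cdc45 (-0.88, 3.03e-06), Pole (-0.85, 0.00121), Mcm10 (-0.81, 7.67e-06) and Cdc6 (-0.80, 0.00171). The value of Cdc45 is uncertain through its overlap with Ufd1. In counts per 1000 counts of the ring genes, Clspn was at 90.9, 89.3 and 109 in FOXP3-high and 244, 249.6, 235 and 236 in FOXP3-low. Every FOXP3-high library held fewer Clspn counts per ring count than any FOXP3-low library. Rfc4, Mcm8, Timeless and Fen1 were also lower, with differences between -0.47 and -0.32. Of these, Mcm8 lost its call without any single library other than FOXP3-low replicate 1 (adjusted p 0.0534 to 0.108), Timeless without FOXP3-high replicate 1 (0.0554), FOXP3-high replicate 2 (0.0592) or FOXP3-low replicate 2 (0.053), and Fen1 without FOXP3-high replicate 3 (0.0637). Without both libraries numbered 3, Rfc4 (0.056), Fen1 (0.0721) and Mcm8 (0.207) lost their calls. Mcm8 also lost its call with no filter, limma-voom or the replicate number as a block. With Mki67 counts as the size of each library only Clspn was lower, and 34 genes were higher. Mki67 itself fell (log2 fold change -2.29), so this scale raises the values of all genes in FOXP3-high. The share of all tested genes called on it was not computed, so these counts do not single out replication genes.

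The genes that were higher relative to the ring included Orc2 to Orc5, polymerase delta and RPA. Relative to Mcm2 to Mcm7, Orc5 (1.77, adjusted p = 1.34e-05), Cdt1 (1.76, 4.67e-07), Orc4 (1.72, 1.85e-08), Orc3 (1.54, 3.32e-08) and Orc2 (1.26, 6.84e-08) had the largest positive differences. These values lie around the median of all tested genes on this scale, which was 1.49. In CPM the same genes differed little between the groups. Per 1000 ring counts, Cdt1 was at 39.6, 48.6 and 34.7 in FOXP3-high and 12.6, 13.1, 11.1 and 11.7 in FOXP3-low, and Orc4 at 107, 117 and 105 in FOXP3-high and 37.05, 31.9, 32.8 and 30.9 in FOXP3-low. The groups were far apart in both. Rpa1 (1.14), Pold3 (1.05), Gins4 (0.93), Rpa2 (0.86), Rfc2 (0.80), Rfc1 (0.76), Gins3 (0.67), Pold1 (0.62), Pold2 (0.61), Rpa3 (0.60), Pola2 (0.54) and Pola1 (0.20) followed, with adjusted p-values of at most 0.0475. The differences from Rpa1 to Pola1 lie below the median of all tested genes on this scale, 1.49. On it 86.1% of all tested genes were higher. The calls of higher held in the same 12 alternatives for 16 of the 17 genes. The exception was Pola1, which lost its call without FOXP3-high replicate 1 (0.0691) or 2 (0.168), or FOXP3-low replicate 1 (0.115) or 2 (0.109). Pola1 also lost its call with no filter (0.0515) or with limma-voom (0.057). Orc1 (0.03, standard error 0.212) and Orc6 (0.10, standard error 0.0955) did not pass, nor did Gmnn (-0.23, 0.104), Gins2 (-0.04, 0.085) and Tipin (0.05, 0.0631). Gmnn passed as lower without FOXP3-high replicate 3 (adjusted p = 0.0257) or both libraries numbered 3 (0.0271). Lig1 passed as lower without FOXP3-high replicate 2 (0.0253) or FOXP3-low replicate 1 (0.0429). Pcna passed as higher without FOXP3-high replicate 2 (0.0379) or with at least 50 counts required in each of 3 libraries (0.048). Mki67, the gene of the proliferation marker Ki-67, was at 588 ± 39.4 CPM in FOXP3-high and 2880 ± 120.1 CPM in FOXP3-low, and Mcm2 to Mcm7 counts per Mki67 count were 0.658 to 0.731 in FOXP3-high and 0.373 to 0.402 in FOXP3-low. On the scale of CPM, all 10 mitosis genes of a list that includes Mki67 were lower (median log2 fold change -2.20). On that scale 24.6% of all tested genes were lower, and their median was 0.01.

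**Figure D5:**
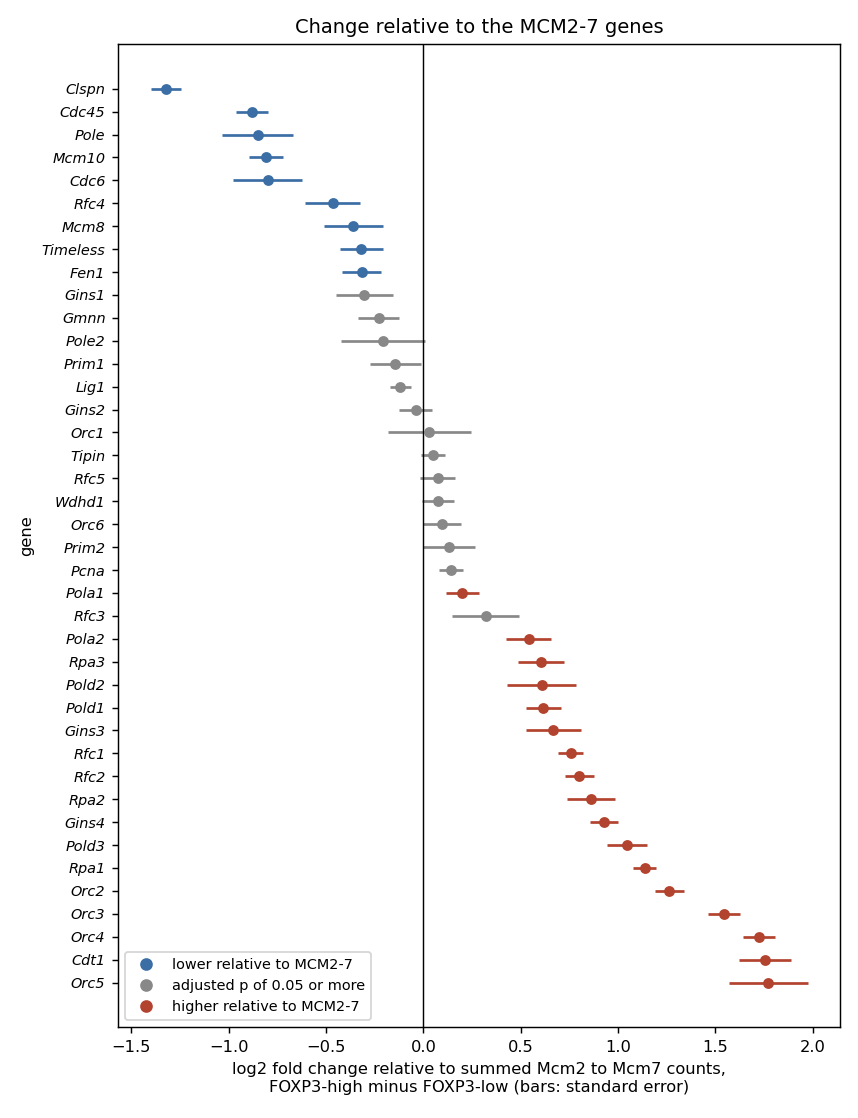
Log2 fold change of the 40 genes outside the ring relative to the summed Mcm2 to Mcm7 counts, FOXP3-high minus FOXP3-low, with standard errors; blue genes were lower, red genes higher and grey genes did not pass an adjusted p of 0.05. Clspn lies lowest at -1.32, and Orc5, Cdt1, Orc4, Orc3 and Orc2 lie highest, between 1.26 and 1.77.

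Levels of different genes were compared as CPM per kilobase of the deposited gene length. On this scale Lig1 was highest in both groups, at 45.9 ± 1.78 in FOXP3-high and 139 ± 7.40 CPM per kilobase in FOXP3-low. In FOXP3-low it was followed by Mcm3, Pcna and Tipin, and in FOXP3-high by Pcna, Mcm3 and Tipin. The ring genes were all among the 12 highest in FOXP3-low, and 5 of the 6 were in FOXP3-high, with Mcm5 at rank 15 in FOXP3-high and rank 6 in FOXP3-low. On this length Orc1 and Orc5 were the lowest in both groups, at 0.765 ± 0.145 and 0.843 ± 0.0792 in FOXP3-high and 2.10 ± 0.319 and 0.687 ± 0.127 CPM per kilobase in FOXP3-low. The deposited length can span more exons than the cells use. With the longest coding transcript of each gene as its length, Lig1, Mcm3, Pcna and Tipin kept the same ranks, and all 6 ring genes were again among the 12 highest in FOXP3-low, while Mcm2 took rank 5 in FOXP3-high in place of rank 12, its length being 3371 bases in place of 6956. Orc1 and Orc5 were then again the lowest in FOXP3-low, but in FOXP3-high Orc5, at 2.47 CPM per kilobase, took rank 41 in place of 45, and Cdc6 (1.04) and Mcm8 (1.08) lay next above Orc1 (0.883).

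Other genes of the replication pathway were mostly lower too. Of 40 further replication genes, 26 were lower, 2 were higher and 12 did not pass, with a median log2 fold change of -0.46. Of all tested genes 24.6% were lower and 21.8% higher, with a median of 0.01. The largest subunit of the chromatin assembly factor CAF-1, Chaf1a, was at 72.8 ± 5.80 CPM in FOXP3-high, against 258 ± 8.13 CPM in FOXP3-low. Dna2, a nuclease and helicase that trims long flaps, fell 6.39-fold, and Dscc1, of the alternative clamp loader that acts in cohesion, 5.63-fold. Topbp1, which activates the checkpoint kinase ATR and helps origins to fire, was at 86.1 ± 4.88 CPM in FOXP3-high, against 169 ± 6.08 CPM in FOXP3-low. Ssrp1, of the histone chaperone FACT, fell 1.60-fold (450.3 ± 8.17 CPM in FOXP3-high, against 722 ± 9.45 CPM in FOXP3-low), and Atad5, which unloads PCNA, 2.45-fold. Against the general direction, Donson, a factor that helps assemble the helicase at origins, was at 54.99 ± 1.66 CPM in FOXP3-high, against 32.9 ± 2.94 CPM in FOXP3-low (log2 fold change 0.74 ± 0.0824, adjusted p = 6.89e-05). Mcm9, the partner of Mcm8, was at 33.8 ± 2.93 CPM in FOXP3-high, against 24.7 ± 1.61 CPM in FOXP3-low (0.46 ± 0.0884, adjusted p = 0.00218), the opposite direction to Mcm8 itself. Neither Donson nor Mcm9 was called higher when libraries were scaled to T cell identity genes. Asf1a lies within the span of Mcm9 on the opposite strand, so the value of Mcm9 is uncertain.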

How the data were processed

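RNA of sorted FOXP3-high (n = 3) and FOXP3-low (n = 4) Treg samples was prepared with a stranded mRNA kit, per the labels' protocols. The deposited table holds raw read counts per gene made by the authors; the submitters' processing notes name fastp 0.23.4, STAR 2.5.3a, featureCounts and the builds GRCm39 and GRCh38, without their roles. Whether strand, shared reads or molecular identifiers were considered is not stated in the sources used here. Counts were tested with edgeR 4.0.16 in R 4.3.3: filterByExpr (minimum count 10, minimum total 15), TMM factors (0.973 to 1.05), and the quasi-likelihood test without covariates, with Benjamini-Hochberg adjustment over 15838 genes. The standard error is the log2 fold change over the square root of F. A separate fit used summed Mcm2 to Mcm7 counts as library size. Gene lengths are a deposited column (other unit, bases); lengths of coding transcripts came from GENCODE M21 and promoters from RefSeq (GRCm38.p6).

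Replicates of a group differed by more than counting noise (chi-square per gene 3.98 to 12.2 in 9 pairs, genes with at least 20 counts). Named were all 46 genes, the 6 other replication genes with the smallest adjusted p, those called higher, Mki67 and a few defining markers. The genes, lists and tests were chosen with earlier results of these data known. Alternatives were DESeq2 1.42.0 (size factors and Wald test), upper quartile and total count scaling, scaling to T cell identity genes, other filters, limma-voom (limma 3.58.1), glmTreat, leaving out libraries, and the replicate number as a block. The scripts were tested on simulated data. Genes overlapping 1 of the 46 genes are given where they held at least 10% as many counts. The values of such genes are uncertain. Overlaps of the other named genes were not searched for in this way.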

Additional observations from a re-analysis of the deposited data

Results flagged for a closer look

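In 5 of 59 groups of 4 libraries checked, 1 library lay far from the other 3; chance gives about 1 in 20 groups. Gmnn was at 47.0 CPM in FOXP3-low replicate 3, against 51.3 to 51.6 CPM in the other FOXP3-low libraries. Gins3 was at 16.4 CPM in FOXP3-low replicate 4, against 19.2 to 19.6 CPM in the others. Rpa1 was at 81.7 CPM in FOXP3-low replicate 3, against 85.3 to 86.0 CPM in the others. The summed level of endothelial genes was 462 CPM in FOXP3-low replicate 3, against 123 to 170.2 CPM in the others, and that of fibroblast and pericyte genes 638 CPM, against 55.1 to 96.8 CPM.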

How the results depend on the processing

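Of the 46 genes, 26 kept direction and call in all 18 alternatives, and 15 changed only under glmTreat, which tests against a 2-fold change. The count of lower genes was 41 to 44 in the other alternatives and 26 under glmTreat. The count of higher genes was 0 with no filter, the DESeq2 Wald test, glmTreat, T cell identity scaling, both libraries numbered 3 left out or the replicate block, 2 with total counts (Cdt1 joined at 0.34, adjusted p = 0.0394), and 0 to 1 without a single library. The median log2 fold change was -1.30 with total counts, -1.88 with T cell identity scaling, and -1.40 to -1.32 without a single library. Of the other replication genes, 11 were lower under glmTreat, and 0 were higher under glmTreat or T cell identity scaling. Over all 15838 tested genes, glmTreat called 981 lower and 137 higher. T cell identity scaling called 8345 of all genes lower and 694 higher, against 3898 and 3459; upper quartile factors called 3591 and 3898, and total counts 3476 and 4122. With T cell identity scaling Orc3 (-0.46), Orc4 (-0.28), Orc5 (-0.23) and Cdt1 (-0.25) changed sign.

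Relative to MCM2-7, 7 to 10 genes were lower and 16 to 17 higher without a single library. Scaling to summed Mcm3, Mcm5 and Mcm7 gave 5 lower and 26 higher, and Mki67 counts 1 and 34. On the Mcm2 to Mcm7 scale 4.7% of all tested genes were lower and 86.1% higher. Such shares were not computed for the other scalings, so their counts do not single out replication genes. Signs changed under these scalings, by their construction, in Mcm8 (0.022 and 0.45), Gmnn (0.15 and 0.57), Gins1 (0.079 and 0.51), Gins2 (0.34 and 0.77), Prim1 (0.24 and 0.66), Pole2 (0.18 and 0.61), Fen1 (0.066 and 0.50), Lig1 (0.26 and 0.69) and Timeless (0.063 and 0.48), and with Mki67 alone in Cdc6 (0.021) and Rfc4 (0.35). Orc1, near 0, ran from -0.080 to 0.16 without a single library, and turned without FOXP3-high replicate 1 (-0.00021), FOXP3-high replicate 3 (-0.080), FOXP3-low replicate 3 (-0.053) or both numbered 3 (-0.16), and Gins2, from -0.084 to 0.013, without FOXP3-high replicate 3 (0.013) or both numbered 3 (0.025); the cause was not tested.

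The deviations of same-numbered libraries correlated at -0.10 and 0.10 for numbers 1 and 2 and at 0.53 for number 3, the highest of the 12 pairs across groups. Pairing was therefore not shown for all numbers, and the labels do not state it; with the replicate block 41 genes were lower, 0 higher, and the median was -1.34. Leaving out both libraries numbered 3 gave 41 lower genes and a median of -1.41. The depth limits low genes such as Orc1, with 19 to 33 counts in FOXP3-high.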

Other observations

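Among genes of chromatin and origin control not described above, Asf1b, Cdc7, Dbf4 and Chek1 fell, while Asf1a, Atr and Rif1 did not pass; these genes were chosen after their values were seen. Of the histone chaperones, Asf1b was at 3.49 ± 0.111 CPM in FOXP3-high, against 17.5 ± 2.87 CPM in FOXP3-low (log2 fold change -2.32 ± 0.169, edgeR adjusted p = 4.66e-06), and Asf1a was at 7.17 ± 1.54 CPM in FOXP3-high, against 7.86 ± 0.678 CPM in FOXP3-low (-0.13 ± 0.178, adjusted p = 0.594). Of the kinase that fires origins, the catalytic subunit Cdc7 fell (6.69 ± 0.851 CPM in FOXP3-high, against 16.6 ± 2.52 CPM in FOXP3-low; -1.30 ± 0.162, adjusted p = 0.000145), and its activator Dbf4 fell (45.9 ± 1.75 CPM in FOXP3-high, against 60.5 ± 5.16 CPM in FOXP3-low; -0.40 ± 0.0807, adjusted p = 0.00275). Chek1, the checkpoint kinase that claspin serves, was lower at 2.33 ± 0.968 CPM in FOXP3-high, against 10.8 ± 1.81 CPM in FOXP3-low (-2.19 ± 0.286, adjusted p = 0.000198). Atr, the kinase that acts before it, did not pass (32.3 ± 1.76 CPM in FOXP3-high, against 31.1 ± 2.80 CPM in FOXP3-low; 0.05 ± 0.0894, adjusted p = 0.663), nor did Rif1, which limits origin firing (222 ± 6.72 CPM in FOXP3-high, against 225 ± 6.39 CPM in FOXP3-low; -0.02 ± 0.0452, adjusted p = 0.739). Whether the members of a pair differ from each other was not tested. Asf1a lies within the span of Mcm9 on the opposite strand, so its value is uncertain.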
